A study of Saccharomyces cerevisiae with 8 samples.

Results

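The 10 genes of iron uptake and iron saving in Saccharomyces cerevisiae described here were taken from the 7126 genes of the deposited count table. They are a named set, not one cut at a measured threshold: FET3 (YMR058W), FTR1 (YER145C), FET5 (YFL041W), FTH1 (YBR207W), SMF3 (YLR034C), ATX1 (YNL259C), CCC2 (YDR270W), AFT1 (YGL071W), AFT2 (YPL202C) and TIS11 (YLR136C). The set was chosen with earlier results of these data known, so shares of all genes beside its counts are descriptions only. All 10 had at least 149 counts in every library and passed the filter on low counts, which left 6174 genes.

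Budding yeast takes up iron at the cell surface by a reductive route. Surface reductases turn ferric into ferrous iron, the multicopper oxidase Fet3 oxidizes it again, and the permease Ftr1, bound to Fet3, carries it into the cell. Fet3 needs copper, which the chaperone Atx1 hands to the transporter Ccc2 in the Golgi. A related oxidase and permease, Fet5 and Fth1, together with Smf3, move iron out of the vacuole. When iron is scarce, the activators Aft1 and Aft2 enter the nucleus and switch on these genes, and Tis11, also called Cth2, binds AU-rich messages of iron-using proteins and speeds their decay.

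RNA came from BY4741, a haploid laboratory strain of mating type a, collected in mid-exponential growth in synthetic medium without uracil. The 8 libraries form 4 groups of 2: mutation strain titled HP, control strain titled HP, mutation strain titled nHP and control strain titled nHP. The labels describe the mutation strain as more tolerant of oxidation stress. Which gene is mutated was not stated in the labels. The study description says that cultures were grown with and without hydrogen peroxide, while the medium entry of the labels gives peroxide to every control strain library and none to every mutation strain library. The grouping here goes by title, and HP and nHP stand for titles only. If the medium entry is right, strain and peroxide cannot be told apart. Separate cultures are not stated for the 2 libraries of any group. The p-values thus measure the spread between these libraries, which may be technical.

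Total counts ran from 8296523 to 11202362 per library. LEU2 and MET17, which BY4741 lacks, had 0 counts in all 8 libraries. The 7 markers of mating type a summed to 85.2 to 88.1 CPM (counts scaled by library size and TMM factors) in HP mutation and 2055 to 2383 CPM in HP control libraries, and to 56.9 to 61.5 CPM in nHP mutation and 2582 to 2943 CPM in nHP control libraries. None of the 7 was at 0 in any group. The mutation strain libraries thus had low levels of the markers of the labelled mating type. The 4 markers of mating type alpha summed to 63.1 to 68.7, 57.4, 45.9 to 50.2 and 68.7 to 69.6 CPM in the same group order. The part of this strain difference in the iron gene values was not tested. Replicates differed by more than 1.5-fold in 4.78% of genes in the HP control group, the most of any group, and in 2.43% to 3.56% elsewhere. Of the 10 iron genes 1 did so, TIS11 in the HP control group. In bulk RNA, a change in a few cells and a change in every cell cannot be told apart.

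The upstream regions of these genes are shown because most of them hold TGCACCC, a core site of Aft1. The 500 bases before each start codon were read from the RefSeq R64 reference genome and searched on both strands. The site was found for 7 of the 10 genes, and in 2.33% of 6019 protein-coding genes with a window of the same length. Of 18 other genes of the iron regulon, 14 held it. AFT1, AFT2 and FTH1 had no match in this window, although FTH1 had the shorter GCACCC, which 7.59% of windows hold. The still shorter CACCC, in 33.4% of windows, was found for 8 of the 10 genes and 18 of the 18 others. A match is a string of letters and not a measured binding event. Each stretch below reads 5′ to 3′ on the coding strand of its gene, with the site in capitals, as TGCACCC or, where it lies on the other strand, as GGGTGCA.

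FET3, chrXIII:388551-388597, plus strand, site 251 to 245 bases before the start codon: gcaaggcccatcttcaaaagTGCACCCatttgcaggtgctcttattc

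FTR1, chrV:461889-461935, minus strand, site 175 to 169 bases before the start codon: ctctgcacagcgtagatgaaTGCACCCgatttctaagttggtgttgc

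FTR1, chrV:462079-462125, minus strand, site 365 to 359 bases before the start codon: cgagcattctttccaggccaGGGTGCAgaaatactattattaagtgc

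TIS11, chrXII:416881-416927, minus strand, site 249 to 243 bases before the start codon: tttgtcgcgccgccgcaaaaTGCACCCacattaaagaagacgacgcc

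TIS11, chrXII:416805-416851, minus strand, site 173 to 167 bases before the start codon: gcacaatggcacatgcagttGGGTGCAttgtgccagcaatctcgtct

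CCC2, chrIV:1005365-1005411, plus strand, site 290 to 284 bases before the start codon: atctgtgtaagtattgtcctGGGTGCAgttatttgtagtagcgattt

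CCC2, chrIV:1005413-1005459, plus strand, site 242 to 236 bases before the start codon: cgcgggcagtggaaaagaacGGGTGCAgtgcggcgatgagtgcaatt

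SMF3, chrXII:212337-212383, minus strand, site 430 to 424 bases before the start codon: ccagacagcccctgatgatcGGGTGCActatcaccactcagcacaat

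FET5, chrVI:48991-49037, plus strand, site 128 to 122 bases before the start codon: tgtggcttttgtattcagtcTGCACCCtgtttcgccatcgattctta

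ATX1, chrXIV:157955-158001, minus strand, site 116 to 110 bases before the start codon: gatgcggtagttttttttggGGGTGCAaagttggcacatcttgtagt

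The stretches show 1 site each for FET3, SMF3, FET5 and ATX1 and 2 sites each for FTR1, TIS11 and CCC2.

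Levels between genes were compared per length, in RPKM as deposited (counts scaled by gene length and by column total, without TMM scaling). In the HP mutation libraries the permease gene FTR1 was highest at 247 ± 17.2 RPKM, followed by the chaperone gene ATX1 at 176 ± 0.626 and FET3 at 172 ± 11.3 (SD, n = 2 each). ATX1 and FET3 did not differ beyond their spread there. FTH1 followed at 113 ± 4.34 RPKM, SMF3 at 99.0 ± 3.10, TIS11 at 92.8 ± 16.1 and FET5 at 86.0 ± 5.87 (SD, n = 2 each). TIS11 was spread over both of these neighbours, at 104 and 81.3 RPKM, while SMF3 and FET5 did not overlap. The activator genes AFT2 and AFT1 stood at 65.4 ± 7.01 and 58.0 ± 4.10 RPKM, and the copper transporter gene CCC2 was lowest at 24.1 ± 0.223 (SD, n = 2 each). In the nHP control libraries the order was ATX1, FTR1, FET3, FTH1, FET5, SMF3, AFT2, AFT1, TIS11 and CCC2, with TIS11 at 27.5 ± 6.20 RPKM (SD, n = 2). ATX1 overlapped FTR1 there, and FET3 overlapped FTH1. Over all 8 libraries TIS11 had the widest range of the 10, with its highest CPM 4.77 times its lowest, and FTH1 the narrowest, with 1.28 times.

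**Figure D1:**
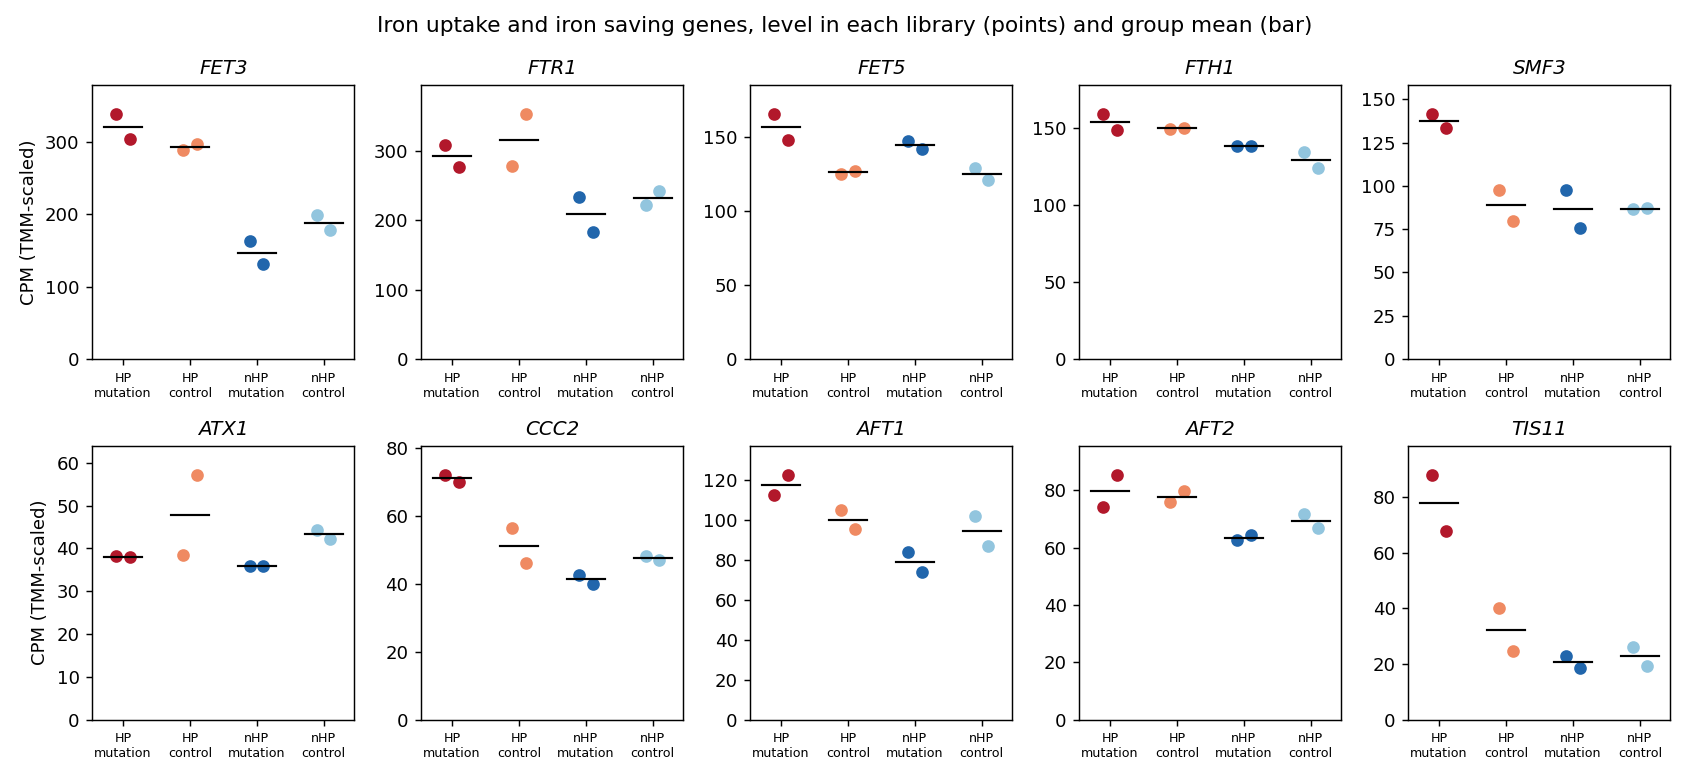
Level of each of the 10 genes in CPM (TMM-scaled, linear axes from 0), with 1 point per library and a bar at the mean of the 2 libraries of a group. TIS11 stood at 67.7 and 87.8 CPM in HP mutation libraries and at or below 40.3 CPM in the other 6, while FTH1 lay between 124 and 159 CPM throughout.

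A gene is said below to have risen or fallen when its adjusted p was below 0.05, from a model fitted to all 6174 genes (edgeR's quasi-likelihood F test, two-sided). Values after ± are standard errors of log2 fold changes unless marked as SD. The comparisons share libraries, so their results are not independent of each other.

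The HP and nHP libraries of the mutation strain were compared to ask how the title group changes these genes in that strain. FET3 and FTR1 of surface uptake, the copper transporter gene CCC2, the vacuolar exporter gene SMF3, both activator genes and TIS11 were higher in HP. The vacuolar oxidase and permease genes and the copper chaperone gene ATX1 did not pass. Of the 10 genes 7 rose, against 25.2% of all genes that rose in this comparison and 49.3% that were called in either direction. The median log2 fold change was 0.53 for the 10 genes and 0.02 for all genes. All 10 had both HP libraries above both nHP libraries, which held for 41.1% of all genes; 38.7% had both below.

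FET3, the surface oxidase, stood at 339 and 304 CPM in HP mutation libraries and at 163 and 131 CPM in nHP mutation libraries. The HP values lay far above the nHP values, with no overlap. FET3 rose 2.19-fold (log2 fold change 1.13 ± 0.11, adjusted p = 3.49e-05). FTR1, its permease partner, stood at 309 and 276 CPM in HP mutation and at 234 and 183 CPM in nHP mutation libraries. The lowest HP library was still above the highest nHP library, by less than the nHP libraries differed. FTR1 rose 1.40-fold (log2 fold change 0.49 ± 0.14, adjusted p = 0.0119). That call ended without nHP mutation replicate 2 (0.34, adjusted p = 0.119) and without HP mutation replicate 1 (0.42, adjusted p = 0.0809).

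TIS11, the mRNA decay factor, stood at 87.8 and 67.7 CPM in HP mutation and at 23.0 and 18.4 CPM in nHP mutation libraries. Both HP libraries were high and the groups were far apart. TIS11 rose 3.75-fold (log2 fold change 1.91 ± 0.23, adjusted p = 9.44e-05), the largest fold of the 10. CCC2, which pumps copper into the Golgi, stood at 72.0 and 70.1 CPM in HP mutation and at 42.7 and 39.8 CPM in nHP mutation libraries. Its replicates were close in both groups. CCC2 rose 1.72-fold (log2 fold change 0.78 ± 0.11, adjusted p = 0.000221), while ATX1, which delivers copper to Ccc2, stood at 38.2 and 37.9 CPM in HP mutation and 35.9 and 36.0 CPM in nHP mutation libraries and did not pass (log2 fold change 0.08 ± 0.16).

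SMF3, a metal exporter of the vacuole, stood at 141 and 133 CPM in HP mutation and at 97.4 and 75.5 CPM in nHP mutation libraries. It rose 1.59-fold (log2 fold change 0.67 ± 0.13, adjusted p = 0.00121). The other vacuolar genes moved little: FET5 had 166 and 148 CPM in HP mutation and 148 and 142 CPM in nHP mutation libraries (log2 fold change 0.12 ± 0.09). FTH1 had 159 and 148 CPM in HP mutation and 138 and 139 CPM in nHP mutation libraries (0.15 ± 0.08). FTH1 passed without composition scaling (0.27, adjusted p = 0.0223), a setting that shifted the median of all genes to 0.14.

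AFT1, the main iron-regulated activator, stood at 112 and 122 CPM in HP mutation and at 83.7 and 74.1 CPM in nHP mutation libraries. It rose 1.49-fold (log2 fold change 0.57 ± 0.11, adjusted p = 0.00118). AFT2, its paralog, stood at 74.3 and 85.3 CPM in HP mutation and at 62.7 and 64.3 CPM in nHP mutation libraries. It rose 1.26-fold (0.33 ± 0.10, adjusted p = 0.0143), but not without nHP mutation replicate 1 (0.32, adjusted p = 0.0668), nHP mutation replicate 2 (0.36, 0.0561) or HP mutation replicate 2 (0.23, 0.145). Without composition scaling, the split of all called genes was 2106 higher and 1051 lower, against 1557 and 1486 with it. All 7 calls were kept there.

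**Figure D2:**
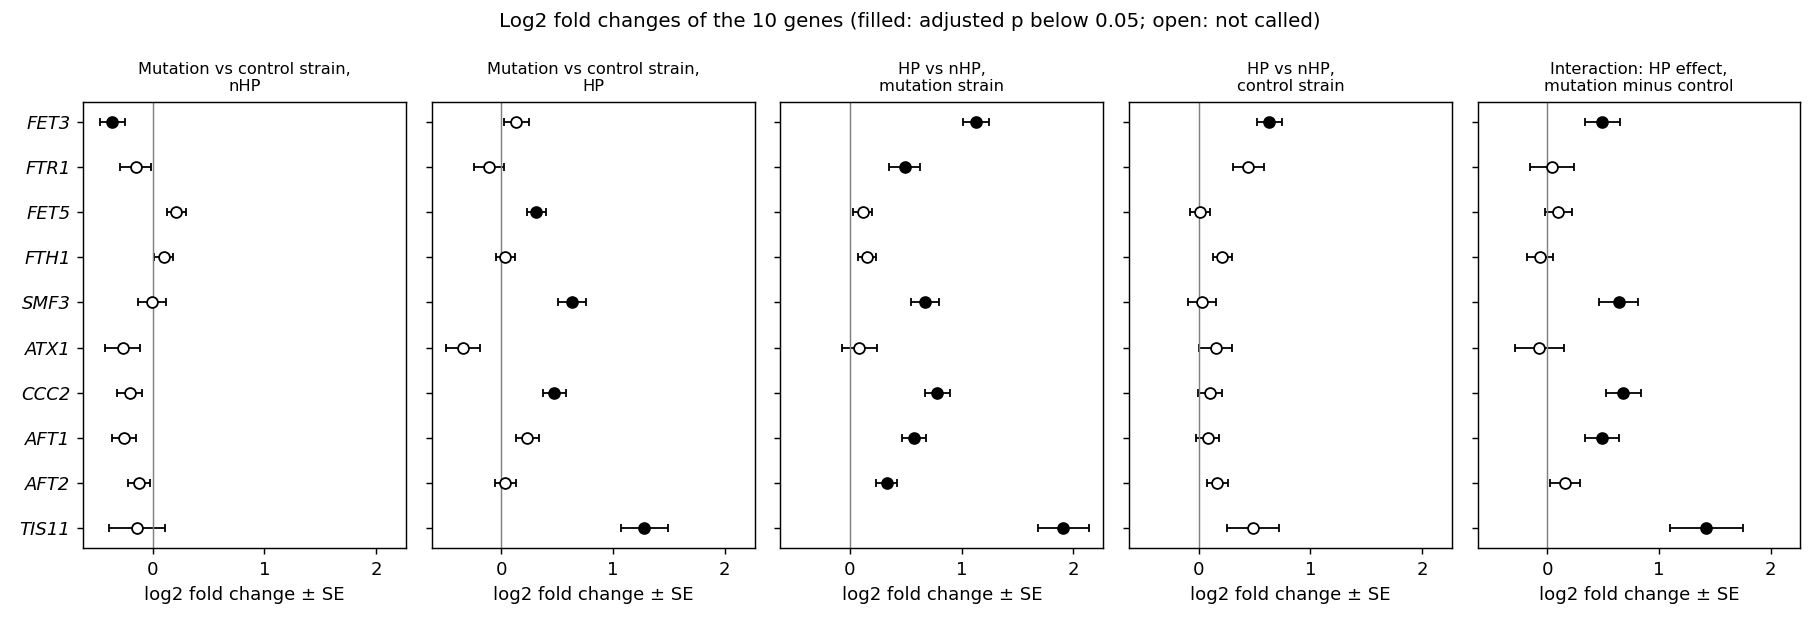
Log2 fold changes of the 10 genes in the 5 comparisons, with standard errors as horizontal bars; filled points have an adjusted p below 0.05 and open points do not. In the HP against nHP comparison of the mutation strain 7 points are filled, led by TIS11 at 1.91 and FET3 at 1.13, and in that of the control strain FET3 alone is filled, at 0.63.

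In the control strain, the HP and nHP libraries differed less, for these genes as for the whole table. FET3 was the only one of the 10 that rose, against 1.44% of all genes that rose, 0.518% that fell and 1.96% that were called in either direction. Unadjusted p-values were below 0.05 for 3 of the 10, a level whose share over all genes is not given. The median log2 fold change was 0.16 for the 10 genes and 0.00 for all genes. Both HP libraries were above both nHP libraries for 4 of the 10, namely FET3, FTR1, FTH1 and AFT2, against 19.8% of all genes, and none had both below, against 19.0%.

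FET3 stood at 289 and 297 CPM in HP control and at 199 and 179 CPM in nHP control libraries. The HP replicates agreed closely and lay well above the nHP replicates. FET3 rose 1.55-fold (log2 fold change 0.63 ± 0.11, adjusted p = 0.0112). Leaving out nHP control replicate 1 or 2 ended the call (0.71, adjusted p = 0.0587, and 0.55, adjusted p = 0.200), and so did limma on log2(RPKM + 1) (0.61, adjusted p = 0.0853) and on log2(RPKM + 0.1) (0.61, adjusted p = 0.0873).

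FTR1 stood at 278 and 353 CPM in HP control and at 222 and 242 CPM in nHP control libraries and did not pass (log2 fold change 0.45 ± 0.14, adjusted p = 0.180). Without HP control replicate 1 it passed (0.60, adjusted p = 0.0142). TIS11 stood at 40.3 and 24.5 CPM in HP control and at 26.3 and 19.5 CPM in nHP control libraries. One HP library was high and the other lay between the nHP libraries, and TIS11 did not pass (0.48 ± 0.23, adjusted p = 0.470). It passed without HP control replicate 2 (0.82, adjusted p = 0.0278) and with a replicate block (0.48, adjusted p = 0.0476). ATX1 also split the HP control replicates, at 38.5 and 57.1 CPM, against 44.4 and 42.3 CPM in nHP control libraries. The remaining 6 genes had log2 fold changes between 0.01 and 0.21 and did not pass.

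Whether the strains differed in their HP change was tested directly, as the interaction: the HP minus nHP log2 difference in the mutation strain, less the one in the control strain. The difference was larger in the mutation strain for 5 of the 10 genes, against 14.6% of all genes called in that direction and 29.2% in either. The median was 0.33 for the 10 genes and 0.01 for all genes. TIS11 differed most, by 1.42 ± 0.33 (adjusted p = 0.00900). CCC2 differed by 0.68 ± 0.15 (adjusted p = 0.00850), SMF3 by 0.64 ± 0.18 (0.0200), FET3 by 0.49 ± 0.16 (0.0364) and AFT1 by 0.49 ± 0.15 (0.0292). FTR1, the partner of FET3, had 0.04 ± 0.19 (adjusted p = 0.885), and FET5, FTH1, ATX1 and AFT2 did not pass either, with values between −0.07 and 0.16.

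These 5 calls leaned on single libraries. None of the 10 genes was called without nHP mutation replicate 2, where the values of the 5 lay between 0.37 and 1.29 and their adjusted p between 0.0513 and 0.144. Without nHP control replicate 1, CCC2 alone was called. CCC2 and TIS11 were the 2 genes called without HP mutation replicate 1 and again without HP mutation replicate 2. Without composition scaling the 5 calls were kept and the median of all genes was 0.16. The split of called genes was then 1321 higher and 576 lower, against 904 and 899.

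The strains were next compared within the HP libraries. TIS11, SMF3, CCC2 and FET5 were higher in the mutation strain, so that 4 of the 10 rose, against 14.7% of all genes that rose and 28.7% called in either direction. The median log2 fold change was 0.18 for the 10 genes and −0.05 for all genes. Both mutation libraries were above both control libraries for 6 genes and below them for ATX1, against 30.5% and 36.7% of all genes.

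TIS11 had 87.8 and 67.7 CPM in HP mutation and 40.3 and 24.5 CPM in HP control libraries, without overlap although each pair was spread. It rose 2.43-fold (log2 fold change 1.28 ± 0.21, adjusted p = 0.00152). SMF3 had 141 and 133 CPM in HP mutation and 97.6 and 80.0 CPM in HP control libraries and rose 1.55-fold (0.63 ± 0.12, adjusted p = 0.00370). CCC2 had 72.0 and 70.1 CPM in HP mutation and 56.4 and 46.2 CPM in HP control libraries and rose 1.39-fold (0.48 ± 0.11, adjusted p = 0.00729). FET5, the vacuolar oxidase, had 166 and 148 CPM in HP mutation and 126 and 127 CPM in HP control libraries and rose 1.24-fold (0.31 ± 0.09, adjusted p = 0.0206).

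The surface uptake genes FET3 and FTR1 were not called between the strains in HP. FET3 had 339 and 304 CPM in HP mutation and 289 and 297 CPM in HP control libraries, without overlap (log2 fold change 0.13 ± 0.11, adjusted p = 0.376). FTR1 overlapped between the groups (−0.11 ± 0.14). The TIS11 and SMF3 calls held without any 1 of the 8 libraries. Without HP mutation replicate 1, FET5 (0.26, adjusted p = 0.160) and CCC2 (0.48, adjusted p = 0.0573) did not pass, which left 2. Without HP control replicate 1 the count was 6, since AFT1 (0.33, adjusted p = 0.0287) passed as higher and ATX1 (−0.55, adjusted p = 0.000865) as lower. FET5 also missed the threshold when only the 4 HP libraries were fitted (0.35, adjusted p = 0.0501).

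Within the nHP libraries, FET3 was lower in the mutation strain, with 163 and 131 CPM in nHP mutation and 199 and 179 CPM in nHP control libraries. FET3 fell 1.28-fold (log2 fold change −0.36 ± 0.11, adjusted p = 0.0421). It was the only one of the 10 called, against 9.91% of all genes that fell and 21.3% called in either direction. An unadjusted p below 0.05 was found for 3 of the 10. The share of all genes at that level is not given, but it is at least the 21.3% called. The median log2 fold change was −0.15 for the 10 genes and −0.02 for all genes. Both mutation libraries were below both control libraries for 5 genes and above them for 2, FET5 and FTH1, against 35.2% and 30.0% of all genes.

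The FET3 call was close to the threshold. It ended with RLE scaling (−0.34, adjusted p = 0.0503), and without nHP mutation replicate 2 (−0.20, adjusted p = 0.349), nHP control replicate 1 (−0.27, 0.275), or nHP control replicate 2 (−0.43, 0.0806). It also ended without HP mutation replicate 1 (−0.36, adjusted p = 0.0615) and without replicate 2 of that group (−0.36, 0.0630). AFT1 had 83.7 and 74.1 CPM in nHP mutation and 102 and 87.1 CPM in nHP control libraries and did not pass (−0.26 ± 0.11, adjusted p = 0.107). Without composition scaling it passed (−0.39, adjusted p = 0.0356). That setting moved the median of all genes to −0.15 and the split of called genes to 419 higher and 1236 lower, against 706 and 612. ATX1 had 35.9 and 36.0 CPM in nHP mutation and 44.4 and 42.3 CPM in nHP control libraries (−0.27 ± 0.16, adjusted p = 0.252). It passed without HP control replicate 1 (−0.27, adjusted p = 0.0495), which raised the count to 2.

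The surface and vacuolar systems are paralogous pairs. The length-scaled ratio of their oxidases separated the groups, and that of their permeases did not. FET3 over FET5, in RPKM, was 2.0 and 2.01 in HP mutation, 2.25 and 2.28 in HP control, 1.08 and 0.901 in nHP mutation and 1.5 and 1.45 in nHP control libraries. The 4 HP libraries were all above the 4 nHP libraries, and the 4 groups did not overlap. The RPKM of FET3 alone also did not overlap between the 4 groups, so the separation is not particular to the ratio. FTR1 over FTH1 was 2.24 and 2.14 in HP mutation, 2.14 and 2.70 in HP control, 1.95 and 1.52 in nHP mutation and 1.90 and 2.24 in nHP control libraries. These ranges overlapped between groups. FET3 over FTR1, the partners of the surface complex, was 0.696 and 0.700 in HP mutation and 0.660 and 0.535 in HP control libraries. In the nHP libraries it was 0.443 and 0.455 in the mutation strain and 0.569 and 0.470 in the control strain, so FTR1 had the higher length-scaled level in all 8. CCC2 over ATX1 was 0.139 and 0.136 in HP mutation and 0.108 and 0.0595 in HP control libraries, and 0.0877 and 0.0815 in nHP mutation and 0.0801 and 0.0817 in nHP control libraries. These ratios are descriptions; with 2 libraries a group, no test was made of them.

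**Figure D3:**
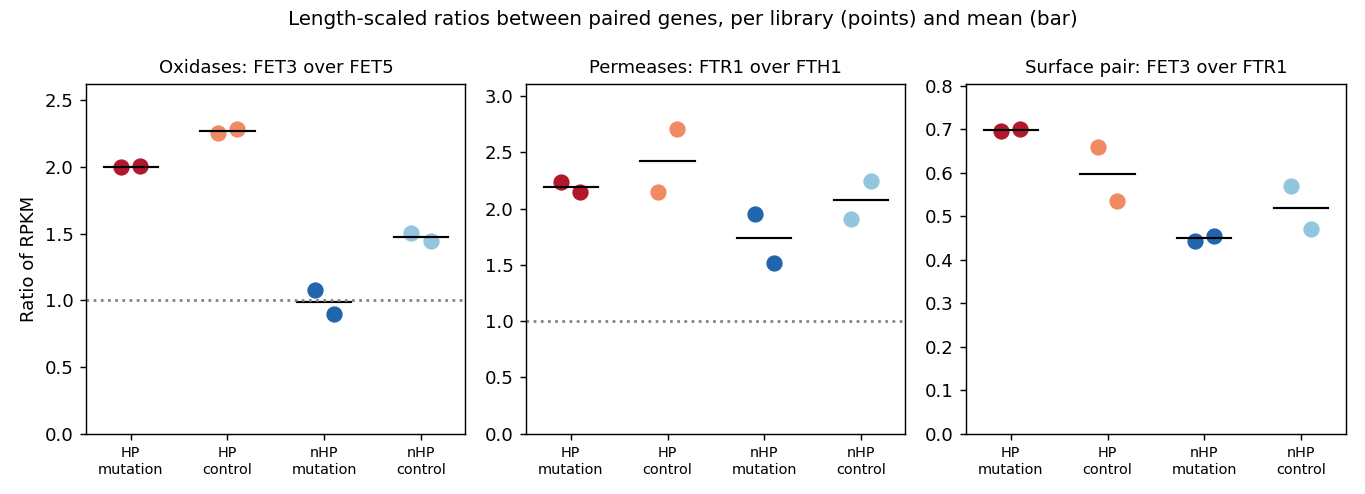
Ratio of RPKM between paired genes, on linear axes from 0, with 1 point per library, a bar at the mean of the 2 libraries and a dotted line at equal levels where it falls within the axis. FET3 over FET5 lies at 2.0 to 2.28 in the 4 HP libraries and at 0.901 to 1.5 in the 4 nHP libraries, whereas FTR1 over FTH1 overlaps between groups.

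Another 18 genes of the iron regulon were followed as a list: the metalloreductase family genes FRE1 to FRE6, the siderophore transporters ARN1, ARN2, SIT1 and ENB1, the cell wall proteins FIT1 to FIT3, and HMX1, MRS4, COT1, LSO1 and VHT1. In the mutation strain, 15 of the 18 rose in HP against nHP (25.2% of all genes did), FRE1 fell and 2 missed the threshold. The median log2 fold change was 0.81, and these counts were the same without any 1 of the 8 libraries. VHT1, a biotin transporter gene, rose by 1.31 ± 0.09 on the log2 scale and FIT3, a cell wall mannoprotein that holds siderophores, by 1.34 ± 0.15. LSO1 rose by 2.0 ± 0.41 from low levels, with 2.24 and 2.33 CPM in HP mutation and 0.623 and 0.495 CPM in nHP mutation libraries.

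In the control strain, against 1.44% of all genes, 2 of the 18 rose in HP against nHP (LSO1 by 2.0 ± 0.39 and VHT1 by 0.74 ± 0.09), FRE1 fell by 1.29 ± 0.20 and 15 were not called; the median was 0.12. Without nHP control replicate 1 or replicate 2, 1 rose. FRE1, a copper- and iron-regulated surface reductase, had 25.4 and 25.2 CPM in HP mutation and 68.3 and 54.7 CPM in nHP mutation libraries, and 30.6 and 37.5 CPM in HP control and 63.8 and 104 CPM in nHP control libraries. It was lower in HP in both strains, opposite to FET3.

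The interaction was positive and called for 11 of the 18, against 14.6% of all genes, with a median of 0.56. FIT3 differed by 1.56 ± 0.21, FIT2 by 1.24 ± 0.20 and FIT1 by 1.09 ± 0.28. Called genes with a positive value numbered 7 without nHP mutation replicate 2, without nHP control replicate 1 or without HP mutation replicate 1, and in the last case 1 was called with a negative value. Between strains in HP, 10 of the 18 rose, against 14.7% of all genes, and 8 were not called. The median was 0.36, and 8 to 10 rose when any 1 library was left out. FIT2 rose by 1.64 ± 0.13, SIT1 by 1.37 ± 0.12 and FIT1 by 1.30 ± 0.19. FIT2 had 80.9 and 66.7 CPM in HP mutation and 26.8 and 21.0 CPM in HP control libraries. Between strains in nHP, 3 of the 18 fell (FRE3 by 0.71 ± 0.14, FRE6 by 0.60 ± 0.09 and HMX1, a heme oxygenase gene, by 0.42 ± 0.12) and 15 did not pass, while 9.91% of all genes fell. Without HP control replicate 1 this was 3 higher and 5 lower, without HP control replicate 2 it was 4 higher and 3 lower, without nHP mutation replicate 2 it was 1 in each direction, and with a replicate block 3 higher and 4 lower. Fitting only the libraries compared gave 4 higher and 5 lower, and leaving out composition scaling 0 higher and 5 lower.

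**Figure D4:**
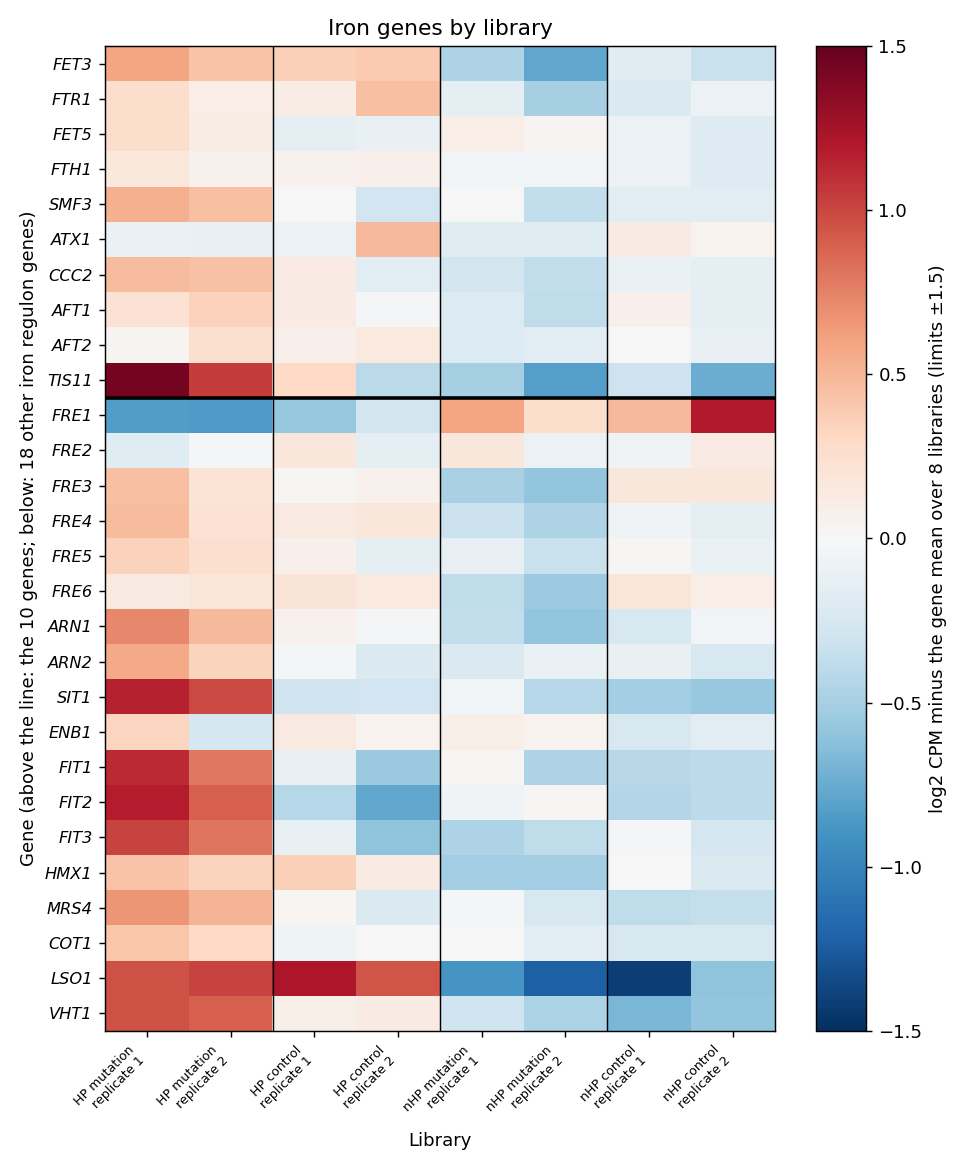
Log2 CPM of the 10 genes (above the line) and 18 other iron regulon genes (below), each minus its own mean over the 8 libraries (columns, 2 per group). Red is above that mean and blue below. TIS11, SIT1, FIT1, FIT2 and FIT3 are strongly red in the 2 HP mutation libraries alone, LSO1 is red in all 4 HP libraries and FRE1 is blue in them.

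Of 8 genes of iron sensing and storage, 2 rose in HP against nHP in the mutation strain and 1 fell, shares near or below those of all genes (25.2% rose, 24.1% fell). YAP5, the activator that responds to high iron, rose by 1.02 ± 0.13, FRA1, which with glutaredoxins restrains Aft1, by 0.35 ± 0.11, and CCC1, the vacuolar iron importer, fell by 0.32 ± 0.10. Without composition scaling and on log2 RPKM, 3 rose and none fell. With any of 3 libraries left out (both HP mutation libraries in turn, or nHP mutation replicate 2), 1 rose and none fell. None of the 8 was called in the control strain by edgeR, DESeq2 or limma-voom, where edgeR called 1.96% of all genes. An unadjusted p below 0.05 in edgeR was found for 2, a level whose share over all genes is not given.

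Of 27 genes of iron-sulfur cluster assembly, 8 rose in HP against nHP in the mutation strain, 3 fell and 16 were not called; the median was 0.08. Over all genes 49.3% were called, so this count is near or below the background. The scaffold gene ISU1 rose by 1.11 ± 0.18, with 361 and 335 CPM in HP mutation and 183 and 139 CPM in nHP mutation libraries. IBA57 and the chaperone gene SSQ1 rose by 0.56 ± 0.10 and 0.51 ± 0.09. Without HP mutation replicate 1, 3 rose and 2 fell, and without nHP mutation replicate 2, 3 rose. With only the libraries compared 10 rose and 7 fell, and without HP control replicate 2, 10 rose and 6 fell. None of the 27 was called in the control strain by edgeR, DESeq2 or limma-voom, where edgeR called 1.96% of all genes. That count was not the same without HP control replicate 1. An unadjusted p below 0.05 in edgeR was found for 2, again without a share over all genes beside it.

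Of 24 genes for iron and heme containing enzymes, the kind of protein whose messages Tis11 is known to restrain, 11 rose in HP against nHP in the mutation strain, 6 fell and 7 were not called; the median was 0.16. Of all genes 25.2% rose and 24.1% fell, so the share that fell was near the background and the share that rose was above it. A part of Tis11 in either was not tested. CTA1, the peroxisomal catalase, rose by 2.30 ± 0.27 and MET5, a sulfite reductase subunit, by 1.61 ± 0.16, while RLI1, an iron-sulfur protein of ribosome recycling, fell by 0.90 ± 0.12. In the control strain MET5 rose by 2.28 ± 0.16 and CYC1, a cytochrome c gene, by 0.59 ± 0.12, while 1.44% of all genes rose. Only 1 was called with a fit to the compared libraries alone, without HP control replicate 2, without any single HP mutation library or without any single nHP control library.

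Of 12 genes of copper and low affinity metal uptake, 10 could be tested, since the metallothionein genes CUP1-1 and CUP1-2 had 0 counts in all libraries. The counter is not named, so whether reads that match both genes were dropped cannot be told. These 0 counts do not show that the RNA was absent. In the mutation strain 2 rose in HP against nHP, 2 fell and 6 did not pass, fewer called than the 49.3% of all genes. The copper transporter gene CTR1 fell by 1.62 ± 0.17 and the zinc transporter gene ZRT1 by 1.71 ± 0.14, while FET4, a low affinity iron transporter, rose by 0.93 ± 0.13. In the control strain 3 fell and 7 were not called, against 0.518% of all genes that fell there and 1.96% called in either direction. ZRT1 fell by 3.19 ± 0.14, CTR1 fell by 2.43 ± 0.17 and FET4 fell by 0.62 ± 0.12. FET4 had 358 and 382 CPM in HP mutation and 224 and 165 CPM in nHP mutation libraries, against 309 and 315 CPM in HP control and 480 and 481 CPM in nHP control libraries. It was therefore higher in HP in the mutation strain and lower in HP in the control strain.

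The genes whose profile over the 8 libraries was nearest to that of FET3 were ARO10, IZH4, GAP1, RAD59 and YOL164W-A, by the root mean square difference of centred log2 CPM, which was 0.115, 0.123, 0.147, 0.155 and 0.162. They kept the same 5 ranks with RLE scaling and with log2 RPKM. YOL164W-A was near the lower limit of counts, at 1.11 to 2.61 CPM. Among the other 9 iron genes FTR1 came nearest, at rank 84 of 6173 with a difference of 0.257, followed by CCC2 at rank 166 and AFT1 at rank 224, and TIS11 was farthest, at rank 2899. This difference depends on the size of a change as well as its direction. TIS11 moved the same way as FET3 in HP against nHP of the mutation strain, but by more (log2 fold change 1.91 against 1.13).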

How the data were processed

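Per the labels' protocols, total RNA from 8 samples was made into libraries with the NEBNext Ultra kit, and per the submitters' processing notes TopHat2 2.0.9 was used; no source used here names the counter, its strand handling, the build or the annotation. The deposited counts are whole reads per gene, not normalized. The deposited RPKM values equal those counts divided by the column total and 1 length per gene, and 5589 of 5888 implied lengths match RefSeq R64 within 1 base. R64 supplied names (6048 IDs matched) and the printed sequences with their own coordinates. No member overlaps another R64 gene, but unmatched IDs and antisense reads cannot be placed. Outside itself, no member aligns (BLAST 2.17.0) to any R64 gene at over 81.4% identity across 50 bases or more.

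Counts were analysed with edgeR 4.0.16 in R 4.3.3: its standard filter, TMM scaling, and 1 quasi-likelihood model of 4 group means with 4 residual degrees of freedom. P-values were adjusted by Benjamini-Hochberg over all 6174 genes. Standard errors come from the F statistic. The code was tested on simulated data. Alternatives were RLE or no scaling, other filters, DESeq2 1.42.0, limma 3.58.1 (voom, and log2 RPKM with pseudocounts of 1 or 0.1), fits to the compared libraries alone, a replicate block, and leaving out each library. Figures used Python 3.11.15 and matplotlib 3.10.9.

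The members and lists were chosen with earlier results of these data known. All 10 members are named; from each list, up to 3 called genes with the largest changes per comparison are named, plus the 5 genes nearest to FET3. FRE1 in the mutation strain was named after its values were seen. Lists were given as counts, with no set test. The share of all genes with an unadjusted p below 0.05 is not given, so counts at that level have no background beside them. A count of 0 allows up to 3 counts, or 0.266 to 0.374 CPM; this covers counting error only.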

Additional observations from a re-analysis of the deposited data

Results flagged for a closer look

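The difference between strains in the HP minus nHP log2 difference (mutation strain minus control strain) passed the test of the interaction for 5 of the 10 genes. The values were 1.42 for TIS11, 0.68 for CCC2, 0.64 for SMF3, 0.49 for FET3 and 0.49 for AFT1, each positive. None of the 5 was called without nHP mutation replicate 2.

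Among the other iron genes, the same test was passed by FIT3 (1.56), FIT2 (1.24) and FIT1 (1.09), cell wall proteins that hold siderophores, and by the activator gene YAP5 (0.62). In cluster assembly it was passed by ISU1 (0.95), IBA57 (0.46) and MRS3 (0.43), a mitochondrial iron carrier gene. In all 7 of 27 cluster assembly genes were called there, 4 with positive and 3 with negative values. Of all genes 29.2% were called there, 14.6% in each direction, so the 7 of 27 was near or below that share. The count was 2 with DESeq2 and 0 without nHP mutation replicate 2 or without HP mutation replicate 1. Among iron and heme containing enzymes CTA1 stood at 2.30, CYC1 at −0.79 and RLI1 at −0.90. Of these 24 genes 3 were called with positive and 6 with negative values, against 14.6% of all genes in each direction. Without composition scaling the counts were 8 and 2. The number called among the 24 stayed near its main value in 2 of the 8 fits without 1 library. For metal uptake FET4 stood at 1.55, ZRT1 at 1.48 and CTR1 at 0.81. CTR1 and ZRT1 fell in HP in both strains, by less in the mutation strain, whereas FET4 moved in opposite directions. Their causes were not tested.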

How the results depend on the processing

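Each of the 10 genes was recomputed in 5 comparisons under 10 other settings (9 for the interaction) and without each library. No called value changed sign. Of 490 values under other settings 465 kept direction and call, and of 400 without 1 library 347 did. The count of the 10 genes called in nHP between strains was 0 with RLE scaling and 2 without composition scaling. In HP against nHP in the control strain it was 0 on log2 RPKM with either pseudocount and 2 with a replicate block, where all genes called numbered 220 against 121. Fitting only the libraries compared gave 1042 genes between strains in HP, against 1769, and 72 in HP against nHP in the control strain. Numbered replicates shared no stated origin, and the block changed no other call of the 10 genes. Correlations of same-numbered deviations were −0.033 to 0.204.

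Without 1 library, the 10 genes had 0 to 2 calls between strains in nHP, 2 to 6 between strains in HP, 5 to 7 in HP against nHP in the mutation strain, 0 to 2 in the control strain and 0 to 5 in the interaction. All genes called ran from 418 to 1860, 661 to 2495, 1773 to 3466, 51 to 218 and 724 to 2554 in that order.

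Sign changes concerned uncalled values. The farthest from 0 was ATX1 between strains in HP, at −0.34, which came to 0.0042 without HP control replicate 2. Between strains in nHP, SMF3 was 0.0144 with RLE scaling and 0.0143 with DESeq2, and FTH1 was −0.0304 without composition scaling and −0.0286 and −0.0289 on log2 RPKM with a pseudocount of 1 and 0.1. In HP against nHP in the control strain FET5 was −0.0126 without composition scaling and −0.0111 and −0.0113 on log2 RPKM, and SMF3 −0.0002 and −0.0003 there. In the interaction, FTH1 and ATX1 were 0.0876 and 0.0824 without composition scaling, 0.0846 and 0.1175 with a pseudocount of 1 and 0.0853 and 0.1183 with 0.1. Without 1 library the ranges that crossed 0 were, between strains in nHP, −0.33 to 0.0224 for FTR1, −0.19 to 0.17 for SMF3 and −0.33 to 0.10 for TIS11; between strains in HP, −0.24 to 0.0942 for FTR1, −0.55 to 0.0042 for ATX1 and −0.0652 to 0.16 for AFT2; in HP against nHP in the control strain, −0.0464 to 0.0659 for FET5, −0.13 to 0.17 for SMF3, −0.17 to 0.39 for ATX1, −0.0559 to 0.25 for CCC2 and −0.0395 to 0.20 for AFT1; and in the interaction −0.10 to 0.25 for FTR1, −0.10 to 0.011 for FTH1 and −0.29 to 0.26 for ATX1. The cause of these shifts was not tested. With 2 libraries a group, the spread of a gene rests on 4 residual degrees of freedom. The model adds an estimate shared over genes, worth a median of 7.4 prior degrees of freedom.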

Other observations

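Between strains in nHP, 4 of 10 genes of copper and low affinity metal uptake fell in the mutation strain, while 9.91% of all genes fell. ZRT1 fell by 1.57 ± 0.13, FET4 by 1.31 ± 0.13 and CTR1 by 0.70 ± 0.16 on the log2 scale. Leaving out nHP control replicate 2 or nHP mutation replicate 2 left 2 of them called. ZRT1 had 419 and 448 CPM in nHP mutation and 1173 and 1403 CPM in nHP control libraries. In the same comparison 5 of 24 genes for iron and heme containing enzymes rose and 19 did not pass, while 11.4% of all genes rose, among them the risers BIO2, the biotin synthase gene, by 0.81 ± 0.11, LEU1, a leucine synthesis enzyme, by 0.76 ± 0.10 and CYC1 by 0.60 ± 0.13. Without nHP control replicate 1 or nHP mutation replicate 2, 2 of them were called. Without composition scaling, and on log2 RPKM, 4 of the 24 were higher and 4 lower, and with a replicate block 6 and 2. CTH1, the paralog of TIS11, rose by 0.45 ± 0.08, with 117 and 113 CPM in nHP mutation and 85.8 and 83.1 CPM in nHP control libraries, while TIS11 did not pass there (−0.14 ± 0.25).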
